A study of Mus musculus with 24 samples.

Results

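Chemokine receptors steer the movement of macrophages and dendritic cells, and 8 of their genes were followed here in the open chromatin of alveolar-like macrophages: Ccr1, Ccr2, Ccr3, Ccr7, Cx3cr1, Cxcr2, Cxcr4 and Ccrl2. A consensus peak, meaning a region that was open in at least some of the libraries of the study, was given to one of these genes when it overlapped the gene body or the 20 kb on either side (GENCODE release M21 on the mm10 genome). This gave 116 of 184158 consensus peaks, and all 116 passed the filter on low counts. Ccr1 had 14 peaks, Ccr2 had 12, Ccr3 had 10, Ccr7 had 12, Cx3cr1 had 36, Cxcr2 had 11, Cxcr4 had 7 and Ccrl2 had 14, and each gene had exactly 1 peak over an annotated start site. The nearest protein-coding start site was the receptor's own for 73 of the 116. Most exceptions were at Cx3cr1, whose annotated body of 168264 bp includes a long transcript that runs past Wdr48, Gorasp1, Ttc21a, Csrnp1 and Xirp1.

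The cells were bone marrow-derived macrophages (BMDMs) grown in 10 ng/ml GM-CSF and 2 ng/ml TGF-β, cytokines that give a culture resembling alveolar macrophages. They came from wildtype (WT) mice or from mice lacking the aryl hydrocarbon receptor (AhR-KO), a ligand-activated transcription factor. The knockout is a germline allele, so bone marrow precursors lacked AhR before the culture began. On day 6 the cells were left unstimulated or received 97 EU/ml lipopolysaccharide (LPS), the bacterial ligand of TLR4, for 24 h, and 5 µM ionophore A23187 was added for the last 10 min. The protocol text is shared by all samples and does not say whether unstimulated cultures received the ionophore. Each of the 4 groups (unstimulated WT, unstimulated AhR-KO, WT with LPS and AhR-KO with LPS) has 6 libraries made by ATAC-seq, in which a transposase inserts sequencing adapters into accessible DNA. The study describes 6 animals per group from 1 experiment, and whether unstimulated and LPS cultures came from the same animals is not given in the sources used here.

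Chemokine receptors are G protein-coupled receptors that read gradients of secreted chemokines. CCR2 brings monocytes out of the bone marrow toward CCL2, CCR1 and CCR3 bind inflammatory CC chemokines such as CCL3, CCL5 and the eotaxins, CCR7 takes activated dendritic cells to lymph nodes along CCL19 and CCL21, and CX3CR1 binds the membrane-bound chemokine fractalkine. CXCR2 is best known on neutrophils, CXCR4 retains cells in the bone marrow through CXCL12, and CCRL2 binds chemerin without signalling and presents it to other cells. Inflammatory stimulation of myeloid cells is known to switch them from CCR2 and CX3CR1 toward CCR7.

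The regions on which the results below turn are shown here by sequence, from GRCm38.p6, 5′ to 3′. The first 3 are the middle 300 bases of a peak away from the start site, namely the Ccr7 peak with a narrowly called change of the genotype difference with LPS, the Cxcr2 peak with the largest genotype difference and the Cx3cr1 peak with the smallest p between unstimulated genotypes, and the fourth is the part of the Ccr2 start site peak that lies before its first exon (all on the plus strand). The last 2 are RefSeq promoter stretches, before the first annotated exon and on the strand of the gene, of Ccrl2, which opened with LPS, and of Cxcr2, which was less open in unstimulated AhR-KO cells. Capitals mark the AhR core motif GCGTG on either strand, the only 1 of 5 searched motifs that any of the 6 windows held.
Ccr7 peak beyond the 3′ end, chr11:99142601-99142900: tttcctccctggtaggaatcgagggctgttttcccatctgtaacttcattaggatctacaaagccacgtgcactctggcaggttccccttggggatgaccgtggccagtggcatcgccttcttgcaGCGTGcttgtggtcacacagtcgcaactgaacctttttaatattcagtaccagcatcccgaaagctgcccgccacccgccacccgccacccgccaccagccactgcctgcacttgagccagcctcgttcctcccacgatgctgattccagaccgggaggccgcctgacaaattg
Cxcr2 upstream peak, chr1:74135198-74135497: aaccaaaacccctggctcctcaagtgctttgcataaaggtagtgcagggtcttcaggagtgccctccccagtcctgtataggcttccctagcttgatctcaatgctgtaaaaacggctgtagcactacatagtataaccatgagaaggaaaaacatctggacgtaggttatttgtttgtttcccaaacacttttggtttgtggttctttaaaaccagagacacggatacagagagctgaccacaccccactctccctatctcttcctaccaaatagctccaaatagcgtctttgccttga
Cx3cr1 intronic peak, chr9:120034313-120034612: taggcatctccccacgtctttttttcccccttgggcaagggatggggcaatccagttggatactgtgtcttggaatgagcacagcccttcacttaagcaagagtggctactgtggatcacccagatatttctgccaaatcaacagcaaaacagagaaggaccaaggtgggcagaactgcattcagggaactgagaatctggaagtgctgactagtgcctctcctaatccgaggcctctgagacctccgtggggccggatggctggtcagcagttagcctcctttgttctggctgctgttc
Ccr2 start site peak, chr9:124101800-124101949: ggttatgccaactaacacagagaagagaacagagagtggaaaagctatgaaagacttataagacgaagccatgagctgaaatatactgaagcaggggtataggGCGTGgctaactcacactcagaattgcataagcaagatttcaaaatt
Ccrl2 promoter, chr9:111057520-111057768: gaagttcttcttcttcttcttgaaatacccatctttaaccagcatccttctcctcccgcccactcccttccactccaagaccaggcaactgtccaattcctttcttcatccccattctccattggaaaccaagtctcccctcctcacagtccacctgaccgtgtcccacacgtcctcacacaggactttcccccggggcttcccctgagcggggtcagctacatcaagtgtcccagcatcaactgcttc
Cxcr2 promoter, chr1:74153744-74153988: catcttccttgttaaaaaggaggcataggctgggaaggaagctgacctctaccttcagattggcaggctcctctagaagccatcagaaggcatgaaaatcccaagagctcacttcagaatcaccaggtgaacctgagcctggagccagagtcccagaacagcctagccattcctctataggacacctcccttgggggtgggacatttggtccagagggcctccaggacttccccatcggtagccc

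The core motif was present once in the Ccr7 window and once in the Ccr2 window. For comparison, 17.2% of the middle 300 bases of the 139121 tested peaks of at least that length hold GCGTG on either strand, as do 8.88% of 172606 windows of 150 bases. None of the 6 windows held the AP-1 motif TGANTCA, an NF-kB motif (GGGA, any base, TTTCC), the PU.1 motif GAGGAAG or an IRF motif (GAAA, any 2 bases, GAAA), each searched on both strands. These letters are found in 17.4%, 0.800%, 18.8% and 4.67% of the 300-base peak middles, and in 6.66%, 0.353%, 10.3% and 2.93% of 32851 RefSeq promoter windows of 245 bases, in that order. A RefSeq promoter was held for 7 of the 8 genes (not for Ccr7), and only those of Ccrl2 and Cxcr2 were searched and printed.

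Values are given in CPM, the reads in a peak scaled to a TMM-normalized total of 1e+06 reads over all peaks of that library. A differentially accessible region (DAR) is a peak that differs at least 1.5-fold, with its adjusted p no higher than 0.05, in edgeR's quasi-likelihood test, fitted to all 174193 tested peaks and all 24 libraries. The libraries held 8.54 to 34.6 M counts in peaks. The shallowest was in the unstimulated WT group, where the totals ran from 8.54 to 23.1 M. The peak over the Ahr start site was lower in AhR-KO cells, at 13.2 ± 1.199 against 22.5 ± 1.67 CPM without LPS (SD, n = 6; adjusted p = 2.98e-10) and at 14.7 ± 1.84 against 20.1 ± 1.19 CPM with LPS (adjusted p = 4.52e-06), with no overlap of the libraries. All 6 macrophage markers and all 5 alveolar-like markers had an open start site, 3 of the latter (Itgax, Marco and Car4) being DARs higher in unstimulated AhR-KO (summed CPM of the 5 from 71.1 to 88.2 against 48.1 to 58.4 in WT), whose part in the genotype differences was not tested, and none of the 4 eosinophil and mast cell, 3 T cell or 3 B cell markers had one. Of 5 neutrophil markers 2 had a start site peak, and of 3 fibroblast markers 1 had. Dendritic cell markers had one in 4 of 5 genes, Flt3, Zbtb46, Batf3 and Ccl22, while Clec9a had none.

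Some WT libraries stood apart from the rest. Over the peaks that differed by more than 1.5 on the log2 scale between the genotype means of the other libraries, each library was placed between 0 (WT) and 1 (AhR-KO). WT LPS replicate 3 lay at 0.48 over 2669 peaks and unstimulated WT replicate 5 at 0.40 over 2608 peaks. The other WT libraries lay between -0.30 and 0.24, and the AhR-KO libraries lay between 0.81 and 1.06, the lowest being AhR-KO LPS replicate 3. Without WT LPS replicate 3 the receptor peaks held 30 DARs between genotypes with LPS, against 29 with all libraries, and without unstimulated WT replicate 5 they held 24 without LPS, against 25.

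LPS changed most of these peaks in either genotype. In WT cells 65 of the 116 peaks were DARs, 32 of them lower and 33 higher with LPS. That is 56.0%, beside 47% of all tested peaks (21.6% lower and 25.4% higher). In AhR-KO cells 65 peaks were again DARs, 28 lower and 37 higher, beside 48.8% of all tested peaks (21.5% lower and 27.3% higher). The 22 peaks lower in both genotypes make up 68.8% of the lower DARs of WT and 78.6% of those of AhR-KO, and the 30 peaks higher in both make up 90.9% and 81.1%. This overlap was not counted over all tested peaks. In WT cells the 6 libraries of one treatment lay entirely above those of the other at 61 of the peaks, 32 lower and 29 higher with LPS (38.7% of all tested peaks did so), and in AhR-KO cells at 31 lower and 37 higher (45.6%).

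The loci moved in different directions with LPS. Ccr7 opened across its whole neighborhood, with 11 of 12 peaks higher in WT and none lower. Ccr1 was mostly reduced in WT, with 8 of 14 peaks lower and 2 higher, and Ccr2 had 5 of 12 lower and none higher. Cxcr2 (5 lower, none higher) and Cxcr4 (3 lower, 1 higher) also leaned downward, whereas Ccr3 had 3 lower and 5 higher, Ccrl2 had 3 lower and 5 higher, and Cx3cr1 had 5 lower and 9 higher.

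**Figure D1:**
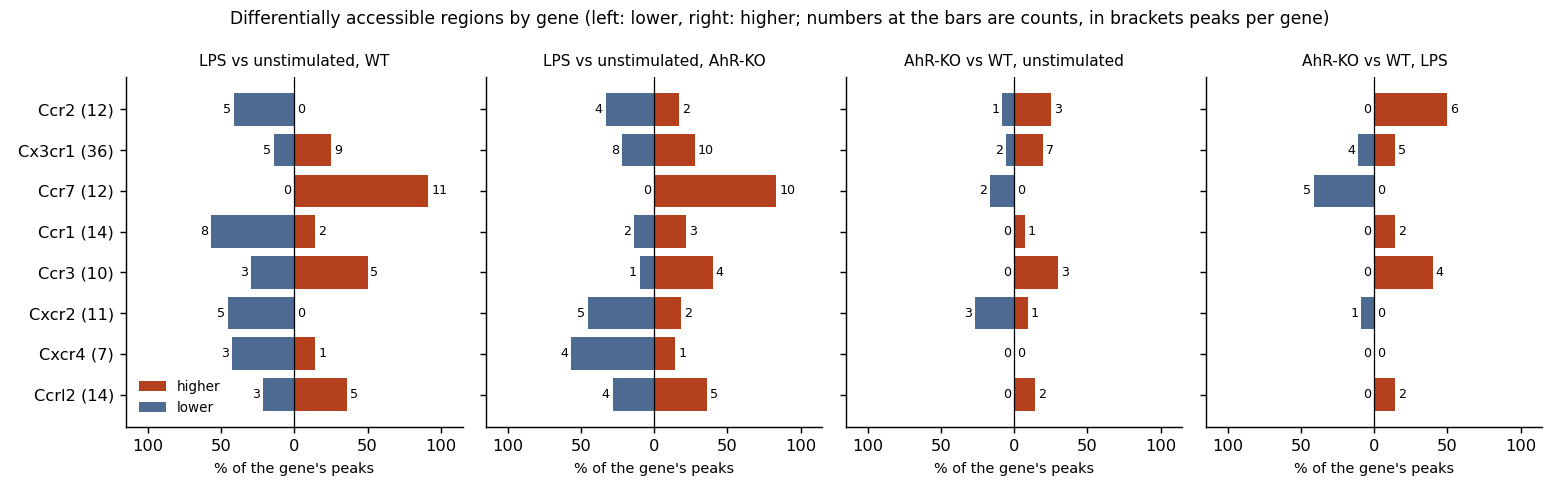
Share of each gene's peaks (x axis, percent) that were DARs in each of 4 comparisons, with lower peaks to the left and higher peaks to the right; the number at each bar is the count and the number in brackets is the gene's number of peaks. Ccr7 is the gene with the largest share of higher peaks with LPS (11 of 12 in WT, 10 of 12 in AhR-KO) and also the one with the most lower peaks in AhR-KO with LPS (5 of 12).

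The loss of AhR changed fewer peaks, and close to the share seen across the genome. Without LPS 25 peaks (21.6%) were DARs between genotypes, 8 lower and 17 higher in AhR-KO, beside 22.6% of all tested peaks (12.6% lower and 9.95% higher). Under RLE scaling this split was 5 lower and 20 higher, and with DESeq2 it was 5 and 18. The background turned with it, since 56.0% of all DARs were lower with TMM, 48.4% under RLE scaling and 48.6% with DESeq2. With LPS 29 peaks (25%) were DARs, 10 lower and 19 higher, beside 26.5% (13.1% lower and 13.4% higher). The libraries of the 2 genotypes did not overlap at 12 lower and 10 higher peaks without LPS (21% of all tested peaks) and at 3 lower and 20 higher peaks with LPS (19.6%). Of the higher DARs 9 were shared by both treatments, 52.9% of those without LPS and 47.4% of those with LPS. The sharing between treatments was not counted over all tested peaks either. Of the lower DARs 1 was shared, a peak upstream of Cxcr2, and 1 peak that was lower without LPS was higher with LPS, the peak upstream of Ccr2. At 12 peaks (10.3%, beside 10.4% of all tested peaks) the genotype difference itself changed with LPS, being lower with LPS at 4 (4.58% of all tested peaks) and higher at 8 (5.83%).

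**Figure D2:**
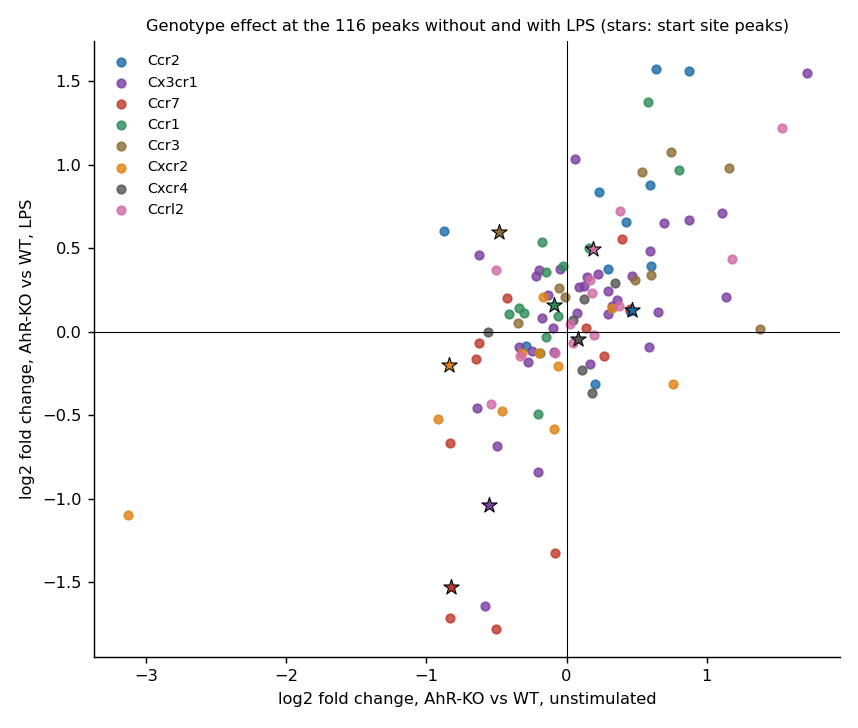
Log2 fold change of AhR-KO against WT at the 116 peaks, without LPS (x axis) and with LPS (y axis), colored by gene, with start site peaks as stars; the comparisons share no libraries. The Cxcr2 upstream peak stands at -3.13 without LPS, the Ccr7 start site at -1.53 and the Cx3cr1 start site at -1.04 with LPS, and the Cx3cr1 intronic peak lies at 1.71 and 1.55.

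CCR7, the receptor that leads activated dendritic cells to lymph nodes, had the largest share of peaks higher with LPS of the 8 loci. The start site peak of Ccr7 (chr11:99154780-99155479, 700 bp) ranged from 0.528 to 1.52 CPM in unstimulated WT (median 0.838) and from 0.365 to 0.747 in unstimulated AhR-KO (median 0.558). With LPS the WT libraries held 3.27 to 10.5 CPM (median 7.73) and the AhR-KO libraries 1.75 to 4.47 CPM (median 2.06). All LPS libraries lay above all unstimulated ones of their genotype, while the WT and AhR-KO libraries with LPS overlapped. The increase was 2.83 ± 0.291 on the log2 scale in WT (SE, adjusted p = 3.55e-09) and 2.13 ± 0.339 in AhR-KO (adjusted p = 4.3e-06). With LPS the peak was lower in AhR-KO by 2.89-fold (log2 difference -1.53 ± 0.243, adjusted p = 1.13e-05). The difference without LPS was -0.82 ± 0.405 (adjusted p = 0.109), and it was called when only the groups compared were fitted (-0.81, adjusted p = 0.00621), and the change of the genotype difference with LPS was -0.71 ± 0.483 (adjusted p = 0.351).

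The most accessible Ccr7 peak lies just beyond the 3′ end of the gene (chr11:99141407-99144095, middle 12326 bp downstream of the start site), the region whose middle is printed above. Without LPS the 6 WT libraries ranged from 8.03 to 10.7 CPM and the 6 AhR-KO libraries from 8.22 to 9.48 CPM. With LPS the WT libraries held 63.6, 82.5, 24.9, 49.6, 36.3 and 73.1 CPM (replicates 1 to 6) and the AhR-KO libraries 13.7, 17.8, 44.2, 21.2, 14.2 and 21.4 CPM. WT LPS replicate 3 was the lowest of its group and AhR-KO LPS replicate 3 the highest of its group, and these were the libraries in which the groups overlapped, together with WT LPS replicate 5. The rise with LPS was 6.02-fold in WT and 2.54-fold in AhR-KO, and AhR-KO was lower with LPS by -1.32 ± 0.266 on the log2 scale (adjusted p = 0.000352). Without LPS the difference was -0.08 ± 0.323. The change of the genotype difference, -1.24 ± 0.418, was called by a narrow margin (adjusted p = 0.0485). Leaving out 1 library ended this call in 21 of 24 refits, at values from -1.31 to -1.09, and the call remained without WT LPS replicate 3 (-1.40, adjusted p = 0.0133), without AhR-KO LPS replicate 3 (-1.57, adjusted p = 0.00369) and without WT LPS replicate 5. The genotype difference with LPS was -1.48 without WT LPS replicate 3 and -1.64 without AhR-KO LPS replicate 3.

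With LPS the 5 DARs of Ccr7 were all lower in AhR-KO, by -0.67 to -1.78 on the log2 scale. They were the start site, the peak beyond the 3′ end, a peak over an exon and 2 upstream peaks whose middles lie 5872 and 16094 bp before the start. The call at 5872 bp was lost in 8 of 12 refits without 1 library. The other 7 Ccr7 peaks differed by -0.16 to 0.56 between genotypes with LPS and none was a DAR. One of them, 9918 bp upstream (chr11:99164584-99165406), was among the clearest LPS responses of the gene, with 3.83 to 6.18 CPM in unstimulated WT, 6.28 to 7.59 in unstimulated AhR-KO, 16.2 to 21.8 in WT with LPS and 19.1 to 24.1 in AhR-KO with LPS. On the log2 scale it rose by 1.96 ± 0.0973 in WT and 1.64 ± 0.0912 in AhR-KO (adjusted p = 4.26e-19 and 5.08e-18), and with LPS the genotypes differed there by 0.14 ± 0.0829 (adjusted p = 0.183). Without LPS 2 Ccr7 peaks were lower in AhR-KO. The one with the smaller p, 8173 bp upstream, held 1.86 to 2.67 CPM in WT and 1.22 to 1.84 in AhR-KO (-0.62 ± 0.143, adjusted p = 0.000557), a call lost under RLE scaling (-0.56), with DESeq2 (-0.57), without unstimulated WT replicate 6 (-0.57) and without unstimulated AhR-KO replicates 4 (-0.56) or 5 (-0.58).

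**Figure D3:**
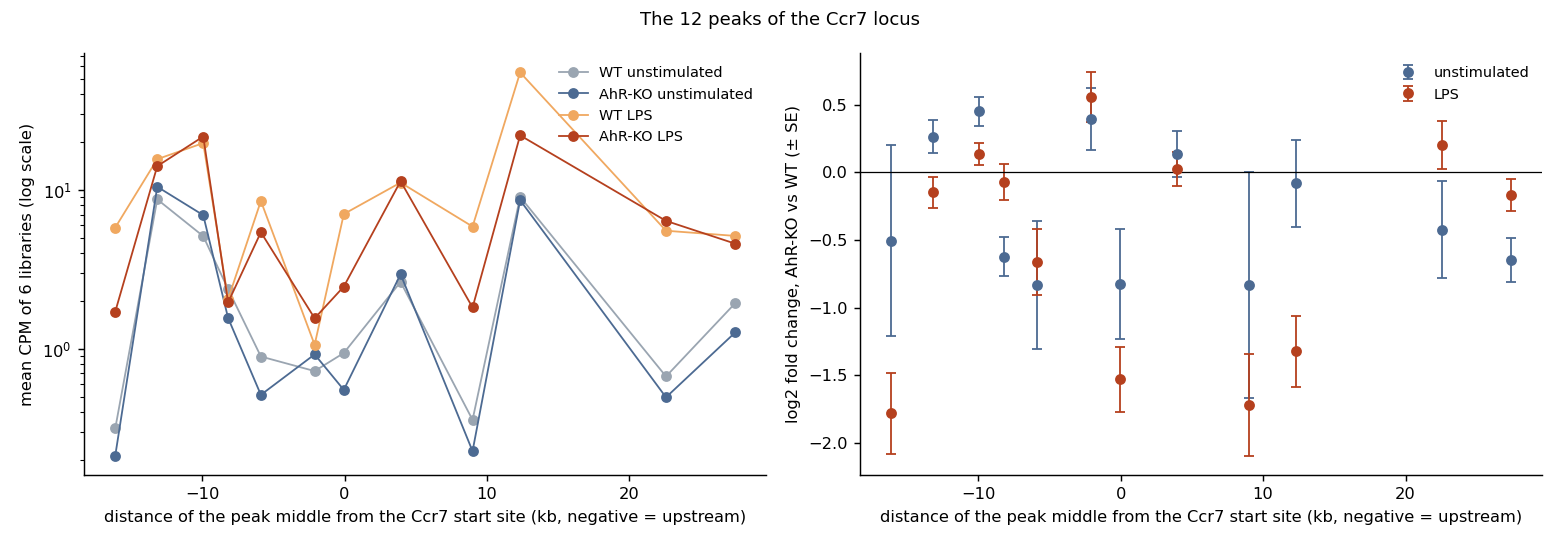
Left, mean CPM of the 6 libraries of each group (log scale) at the 12 Ccr7 peaks against their distance from the start site in kb; right, log2 fold change of AhR-KO against WT with its SE at the same peaks, without and with LPS. The WT LPS mean stands above the AhR-KO LPS mean at the start site (7.05 against 2.46 CPM) and at the peak beyond the 3′ end (55.0 against 22.1 CPM), and the means at the peak 9918 bp upstream are 19.7 and 21.7 CPM.

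Of the 4 dendritic cell markers with a peak, the cell type in which CCR7 is best known, 1 was a DAR lower in AhR-KO. The start site peak of Flt3, a cytokine receptor of dendritic cells and their precursors, was a DAR lower in AhR-KO without LPS (9.07 ± 2.12 against 4.09 ± 0.61 CPM, log2 difference -1.16) and with LPS (11.6 ± 3.02 against 4.73 ± 0.49 CPM, -1.29). In the WT LPS libraries, replicates 1 to 6, it held 14.5, 15.2, 8.56, 10.3, 8.12 and 12.8 CPM, and the start site of the chemokine gene Ccl22 held 15.1, 18.5, 9.10, 13.8, 11.97 and 20.04 CPM. Replicates 3 and 5 were thus the lowest of this group at Flt3, at Ccl22 and at the Ccr7 peak beyond the 3′ end. In AhR-KO LPS replicate 3, where Ccr7 was highest, Flt3 held 5.06 CPM and Ccl22 16.2 CPM, each the highest of its group, while Batf3 held 18.1 CPM (group range 16.8 to 22.1) and Zbtb46 16.3 CPM, within the range of the group. In WT LPS replicates 3 and 5, Batf3 held 17.4 and 19.1 CPM, the lowest of the group (up to 25.7), and Zbtb46 held 16.5 and 18.1 CPM (15.5 to 21.9). With LPS the genotypes differed by -0.07 at Ccl22, -0.14 at Batf3 and -0.19 at Zbtb46 on the log2 scale, none a DAR, and without LPS Ccl22 was a DAR higher in AhR-KO (0.79), with 0.42 at Batf3 and 0.21 at Zbtb46. The summed CPM of the 4 dendritic cell markers ranged from 51.5 to 80.4 in WT with LPS and from 51.6 to 56.9 in AhR-KO with LPS, and from 43.4 to 53.9 and 51.8 to 61.7 without LPS. In bulk chromatin, fewer cells of a type and lower accessibility per cell cannot be told apart, and the part of the cell mixture in the Ccr7 values was not tested.

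CCR2, the receptor that brings monocytes from the marrow into tissue, lost accessibility at its own start with LPS in both genotypes. At the Ccr2 start, the peak (chr9:124101800-124102014, 215 bp) ranged from 1.12 to 2.44 CPM in unstimulated WT (median 1.81) and from 1.98 to 2.84 in unstimulated AhR-KO (median 2.60). With LPS the WT libraries held 0.163 to 0.510 CPM and the AhR-KO libraries 0.135 to 0.554 CPM. No LPS library reached any unstimulated library, and the decrease was 6.30-fold in WT (log2 -2.65 ± 0.246, adjusted p = 1.01e-11) and 7.95-fold in AhR-KO (-2.99 ± 0.238, adjusted p = 1.13e-13). The genotypes differed by 0.47 without LPS (adjusted p = 0.0495) and by 0.13 with LPS (adjusted p = 0.767), neither of them a DAR. This window is one of the 2 that hold the GCGTG core. The study's peak caller, MACS2, listed the start site peak in 0 of 6 unstimulated WT and 3 of 6 unstimulated AhR-KO libraries. With LPS it was listed in 0 of 6 libraries of either genotype.

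The most accessible Ccr2 peak lies 1332 bp into the gene and overlaps an exon (chr9:124102919-124104112, 1194 bp). It held 12.02 to 17.8 CPM in unstimulated WT and 16.3 to 21.7 in unstimulated AhR-KO, against 3.06 to 4.05 in WT and 2.98 to 4.15 in AhR-KO with LPS. The fall was 4.13-fold in WT and 5.18-fold in AhR-KO (adjusted p = 2.27e-19 and 1.11e-21), with no overlap. Without LPS the AhR-KO mean was 1.37-fold higher (adjusted p = 9.88e-05), short of the 1.5-fold that a DAR needs.

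A weaker peak 2571 bp upstream of Ccr2 (chr9:124099111-124099647) changed the sign of its genotype difference. The WT libraries held 0.697 to 0.991 CPM without LPS and 0.689 to 1.40 with LPS, while the AhR-KO libraries held 0.339 to 0.501 without LPS and 1.18 to 1.87 with LPS. The AhR-KO libraries thus lay below all WT libraries without LPS (-0.87 ± 0.237, adjusted p = 0.00308) and overlapped them from above with LPS (0.61 ± 0.172, adjusted p = 0.00413). The change of the difference was 1.48 ± 0.293 on the log2 scale (adjusted p = 0.000636) and was called in all 24 refits without 1 library. The call with LPS was lost without replicates 1, 4 or 5 of WT with LPS or replicates 2 or 5 of AhR-KO with LPS, at 0.51 to 0.57, and with library totals without TMM or only the groups compared (both 0.58). Counted over all 12 Ccr2 peaks, 6 were higher and none lower in AhR-KO with LPS.

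CX3CR1, the fractalkine receptor of patrolling monocytes and tissue macrophages, was less open at its start site in AhR-KO. The Cx3cr1 start site peak (chr9:120068048-120069014, 967 bp) ranged from 8.82 to 11.1 CPM in unstimulated WT (median 10.3), from 5.93 to 7.82 in unstimulated AhR-KO (median 6.79), from 8.61 to 11.8 in WT with LPS (median 9.23) and from 4.08 to 5.63 in AhR-KO with LPS (median 4.52). The genotypes did not overlap in either treatment. The difference was -1.04 ± 0.0958 with LPS (2.06-fold, adjusted p = 8.57e-11) and -0.56 ± 0.0965 without LPS (1.47-fold, adjusted p = 1.41e-05), the latter just short of the fold a DAR needs and called without unstimulated AhR-KO replicate 4 (-0.60). The log2 change with LPS was -0.07 ± 0.0925 for WT and -0.56 ± 0.0996 for AhR-KO, the latter becoming a DAR under RLE scaling (-0.60), with DESeq2 (-0.60) and with only the groups compared (-0.59), and the change of the genotype difference was -0.49 ± 0.136 (adjusted p = 0.0126, 1.40-fold and so not a DAR).

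An intronic Cx3cr1 peak 33820 bp into the gene (chr9:120034310-120034617), printed above, went the other way. It held 0.530 to 1.35 CPM in unstimulated WT, 2.87 to 3.56 in unstimulated AhR-KO, 0.373 to 0.945 in WT with LPS and 1.23 to 2.69 in AhR-KO with LPS. All AhR-KO libraries were above all WT libraries of the same treatment, by 3.28-fold without LPS (adjusted p = 9.56e-09) and 2.93-fold with LPS (adjusted p = 6.61e-08). MACS2, the peak caller of the study, listed this region in 6 of 6 unstimulated AhR-KO and 5 of 6 AhR-KO LPS libraries, but in 1 of 6 unstimulated WT and 0 of 6 WT LPS libraries. The nearest start site is that of Xirp1.

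Farther along the long Cx3cr1 transcript, 2 peaks rose most clearly with LPS in both genotypes. The peak at 58918 bp rose from between 0.264 and 0.465 CPM in unstimulated WT to between 4.28 and 5.54 with LPS, and from between 0.391 and 0.944 to between 6.56 and 8.80 in AhR-KO, that is 14.9-fold and 13-fold (adjusted p = 3.13e-20 and 2.95e-22). The peak at 55119 bp rose 4.45-fold in WT and 4.32-fold in AhR-KO and was higher in AhR-KO in both treatments (0.69 ± 0.103 without and 0.65 ± 0.0775 with LPS). The call at 58918 bp without LPS (0.87) was lost without unstimulated AhR-KO replicate 1 (0.67). Both lie nearest Xirp1, a muscle gene, so their assignment to Cx3cr1 rests on the annotated transcript alone.

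Closer to Csrnp1, a nuclear protein gene, a wide peak inside that gene (chr9:119969094-119971254) had the smallest p of the Cx3cr1 peaks for a genotype difference that changed with LPS. It held 2.92 to 3.49 CPM in unstimulated WT, 2.63 to 4.60 in unstimulated AhR-KO, 4.42 to 8.26 in WT with LPS and 11.2 to 16.5 in AhR-KO with LPS. The rise was 2.04-fold in WT and 4.01-fold in AhR-KO, a change of the genotype difference of 0.97 ± 0.187 (adjusted p = 0.000457). The most accessible of the 36 peaks covers the Csrnp1 start site (chr9:119981354-119984259), at 37.7 to 46.3 CPM in unstimulated WT and 59.7 to 72.1 in AhR-KO with LPS, and it rose with LPS by 1.59-fold in AhR-KO (adjusted p = 2.61e-12) and was not a DAR in WT (1.18-fold). Of the 28 Cx3cr1 peaks nearest another gene, 8 were genotype DARs without LPS (2 lower, 6 higher) and 6 with LPS (2 lower, 4 higher).

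**Figure D4:**
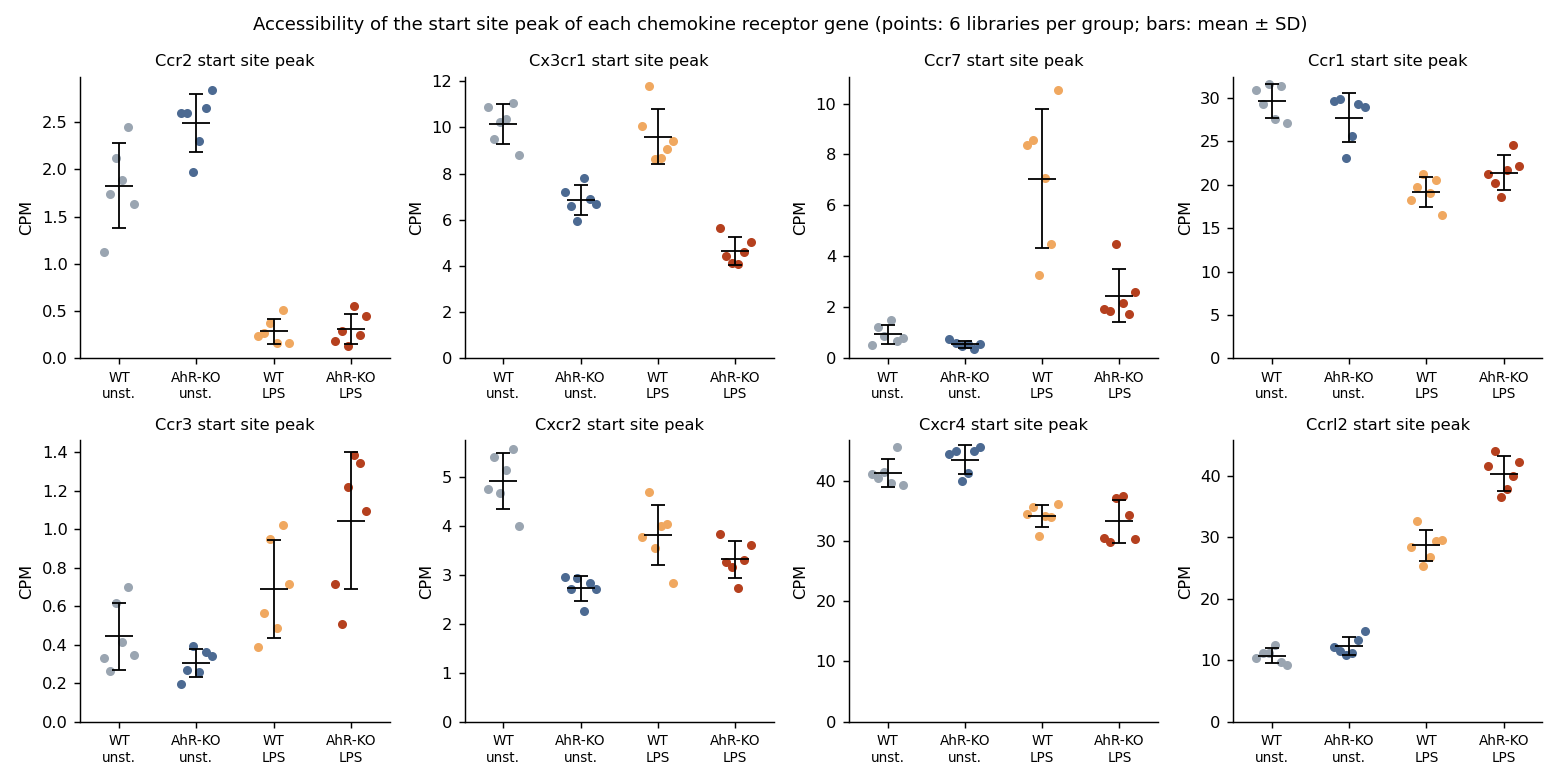
CPM of the start site peak of each of the 8 genes in every library (points, 6 per group) with mean ± SD (bars), for the 4 groups; each panel has its own y axis from 0. Ccr2 is at most 0.554 CPM in the LPS libraries, Ccrl2 is at least 25.3 CPM in them, Ccr7 rises with a wider spread in WT than in AhR-KO, and Cx3cr1 and unstimulated Cxcr2 are lower in AhR-KO without overlap.

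CCR1, which binds CCL3, CCL5 and other inflammatory chemokines, had the most accessible start site per kb of peak in unstimulated cells and lost part of it with LPS. The Ccr1 start site peak (chr9:123968205-123969043, 839 bp) ranged from 27.1 to 31.7 CPM in unstimulated WT (median 30.1), 23.05 to 29.9 in unstimulated AhR-KO (median 29.2), 16.5 to 21.2 in WT with LPS (median 19.4) and 18.6 to 24.6 in AhR-KO with LPS (median 21.5). The fall was 1.54-fold in WT without overlap (log2 -0.62 ± 0.0719, adjusted p = 1.72e-09) and 1.296-fold in AhR-KO with overlap (-0.37 ± 0.0713, adjusted p = 1.97e-05). The first is a DAR and the second is not, but the difference between the genotypes in this response, 0.25 ± 0.101, did not pass (adjusted p = 0.0885), and the WT call was lost without WT LPS replicate 6 (-0.58).

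Around Ccr1, 8 of 14 peaks were DARs lower and 2 higher with LPS in WT, and 2 were lower and 3 higher in AhR-KO. By adjusted p alone, without the fold limit, 12 peaks passed in WT and 11 in AhR-KO. The genotype difference was called as changed with LPS at 1 of the 14, and the counts themselves do not test a difference in response. A peak 17344 bp downstream of the start (chr9:123951162-123951534) fell from between 3.44 and 4.30 CPM in WT to between 1.24 and 1.92, and from between 2.98 and 3.86 in AhR-KO to between 0.837 and 1.5 (2.51-fold and 3.08-fold, adjusted p = 8.34e-11 and 1.81e-12). A wide upstream peak closest to Ccr1l1, a Ccr1-like gene, fell in the same way from between 13.8 and 15.6 CPM to between 7.22 and 9.58 in WT (1.75-fold) and by 1.58-fold in AhR-KO. Reads of Ccr1 and Ccr1l1 may be shared where these related genes are alike. A peak 11262 bp downstream rose in both genotypes without overlap, by 1.91-fold in WT and 2.42-fold in AhR-KO (adjusted p = 8.39e-07 and 2.92e-10). The peak 8207 bp downstream (chr9:123960189-123960781) held 3.01 to 4.60 CPM in unstimulated AhR-KO and 4.74 to 9.73 in AhR-KO with LPS (0.83 ± 0.153), while in WT it held 2.92 to 5.21 without LPS and 3.78 to 5.97 with LPS. The change of the genotype difference was 0.72 ± 0.219 (adjusted p = 0.0233), lost without unstimulated WT replicate 3 (0.64) or AhR-KO LPS replicate 5 (0.58).

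Genotype DARs at Ccr1 were few and lay in weakly open regions. By adjusted p alone, 2 of the 14 peaks passed without LPS and 7 with LPS. These include more open regions, such as the peak 11262 bp downstream (mean 4.75 CPM in WT with LPS). A peak 3852 bp upstream of the start held 0 to 0.349 CPM in unstimulated WT, 0.0869 to 0.433 in unstimulated AhR-KO, 0.180 to 0.666 in WT with LPS and 0.610 to 1.46 in AhR-KO with LPS (AhR-KO against WT with LPS 1.38 ± 0.295, adjusted p = 0.000227). Its call for LPS in WT (1.14) was lost without unstimulated WT replicates 1 or 4 or WT LPS replicate 2 (0.89 to 0.93). A peak 7081 bp upstream, whose nearest start site is that of Ccr1l1, was higher in AhR-KO in both treatments. It held 0.763 to 1.27 against 0.436 to 0.814 CPM without LPS (0.80 ± 0.217) and 0.594 to 0.892 against 0.240 to 0.586 with LPS (0.97 ± 0.222). MACS2 listed these 2 regions in at most 2 libraries of any group.

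CCR3, the eotaxin receptor known from eosinophils, had the least accessible start site of the 8 genes in unstimulated cells, and none of the eosinophil and mast cell markers had an open start site. The start site peak (chr9:124021629-124022092, 464 bp) ranged from 0.262 to 0.698 CPM in unstimulated WT, 0.197 to 0.395 in unstimulated AhR-KO, 0.390 to 1.02 in WT with LPS and 0.509 to 1.39 in AhR-KO with LPS. The rise in AhR-KO was 3.37-fold without overlap (1.75 ± 0.291, adjusted p = 2.01e-06), and that in WT was 1.60-fold with overlap (0.68 ± 0.296, adjusted p = 0.0442). The genotype difference with LPS was 0.60 ± 0.241 (adjusted p = 0.0422). These last calls were fragile, being lost in 7 of 12 refits without 1 library for WT (0.55 to 0.67) and in 8 of 12 for the genotypes (0.47 to 0.61), and the change of the genotype difference was not called (1.07 ± 0.428, adjusted p = 0.0834).

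Around Ccr3, 5 of 10 peaks were DARs higher and 3 lower with LPS in WT. In AhR-KO 4 were higher and 1 was lower. The peak 1936 bp upstream fell without overlap, by 2.91-fold in WT and 3.29-fold in AhR-KO (adjusted p = 4.46e-07 and 9.44e-09). In an intron 1275 bp into the gene accessibility rose from between 0.644 and 1.28 CPM to between 2.73 and 4.51 in WT and from between 1.22 and 1.58 to between 3.75 and 5.74 in AhR-KO (3.92-fold and 3.27-fold, adjusted p = 1.71e-12 and 2.08e-12). The genotype call there without LPS (0.60 ± 0.195) was lost without unstimulated WT replicates 2 or 6 or AhR-KO replicates 3 or 6 (0.52 to 0.57). The peak 29257 bp downstream of the start (chr9:124051040-124051418) separated all 4 comparisons without overlap: 0.264 to 0.743 CPM in unstimulated WT, 0.932 to 1.304 in unstimulated AhR-KO, 1.59 to 2.80 in WT with LPS and 3.27 to 4.93 in AhR-KO with LPS. AhR-KO was higher by 2.23-fold without LPS (adjusted p = 6.38e-05) and 1.98-fold with LPS (adjusted p = 5.92e-07), and LPS raised it by 3.98-fold in WT and 3.53-fold in AhR-KO. The most accessible peak, 15581 bp downstream, held 17.9 to 23 CPM in unstimulated WT and 13.6 to 15.3 in WT with LPS (1.40-fold lower) and was no DAR in any comparison. No Ccr3 peak was a DAR lower in AhR-KO in either treatment, although the peak 8995 bp upstream was 1.27-fold lower without LPS (adjusted p = 0.014), against 3 of 10 higher without LPS and 4 of 10 with LPS.

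CXCR2, the receptor for CXCL1, CXCL2 and related neutrophil attractants, differed between genotypes at its start site without LPS. The peak (chr1:74153667-74154098, 432 bp) ranged from 4.01 to 5.58 CPM in unstimulated WT (median 4.95) and from 2.26 to 2.95 in unstimulated AhR-KO (median 2.77), then from 2.84 to 4.69 in WT with LPS (median 3.89) and from 2.73 to 3.84 in AhR-KO with LPS (median 3.29). The genotypes were apart without LPS (1.79-fold, log2 -0.84 ± 0.122, adjusted p = 7.32e-07) and overlapped with LPS (-0.20 ± 0.115, adjusted p = 0.162). The change of the genotype difference was 0.64 ± 0.168 (adjusted p = 0.00778), lost without WT LPS replicate 6 (0.57). MACS2 listed the region in 6 of 6 unstimulated WT but 1 of 6 unstimulated AhR-KO libraries.

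The largest genotype difference of all 116 peaks was at the Cxcr2 upstream peak printed above (chr1:74135093-74135604), 18641 bp before the Cxcr2 start and inside Rufy4, a gene known from dendritic cells. Unstimulated WT libraries held 1.63 to 2.64 CPM (median 2.02) and unstimulated AhR-KO libraries 0.127 to 0.433 (median 0.201). With LPS the WT libraries held 0.619 to 1.40 and the AhR-KO libraries 0.251 to 0.567. AhR-KO was lower without overlap in both treatments, by 8.74-fold without LPS (-3.13 ± 0.259, adjusted p = 6.25e-12) and 2.14-fold with LPS (-1.10 ± 0.240, adjusted p = 0.000286). LPS lowered the peak in WT by 2.32-fold (adjusted p = 1.87e-06) and raised it in AhR-KO by 1.76-fold (0.82 ± 0.319, adjusted p = 0.0238), and the genotype difference changed by 2.03 ± 0.375 (adjusted p = 0.000291). The rise in AhR-KO was lost without unstimulated AhR-KO replicates 4 or 6 or AhR-KO LPS replicates 5 or 6 (0.69 to 0.75). The sequence shown for its middle holds no GCGTG.

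Of the 11 Cxcr2 peaks, 4 were genotype DARs without LPS, 3 lower and 1 higher. Beside the start site and the upstream peak, these were a pair of peaks named here after their values were seen, both called in all 12 refits without 1 library. The peak 13390 bp downstream held 2.75 to 4.19 CPM in unstimulated WT and 1.27 to 2.12 in unstimulated AhR-KO, without overlap (-0.92 ± 0.161, adjusted p = 1.7e-05), and was no LPS DAR in either genotype. The peak 12595 bp upstream was higher in unstimulated AhR-KO, at 0.974 to 2.15 against 0.330 to 1.15 CPM (0.76 ± 0.226, adjusted p = 0.00663). With LPS this peak held 0.752 to 1.35 CPM in AhR-KO and 0.804 to 1.76 CPM in WT. It was a DAR lower with LPS in AhR-KO, a call lost in 6 of 12 refits without 1 library. The genotype difference there moved downward with LPS, a change called in all 24 refits. LPS changed other peaks of the gene as well. The peak 2642 bp upstream fell from between 2.58 and 3.70 CPM to between 1.24 and 2.15 in WT (1.91-fold) and from between 2.49 and 3.52 to between 1.13 and 1.75 in AhR-KO (2.11-fold). The peak nearest Cxcr1, 24843 bp downstream, fell 1.81-fold in WT and 1.73-fold in AhR-KO. The most accessible peak, 4329 bp upstream, went up, from between 6.98 and 11.2 CPM to between 11.2 and 14.6 in WT (1.44-fold, not a DAR) and from between 6.61 and 8.77 to between 10.7 and 13.5 in AhR-KO (1.64-fold, adjusted p = 4.9e-08). The 2 neutrophil markers with an open start site summed to 29.6 to 40.7 CPM in unstimulated WT and 34.1 to 37.8 in unstimulated AhR-KO, and neither was a genotype DAR.

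CXCR4, the CXCL12 receptor, was the one gene with no genotype DAR in either treatment. Its start site peak (chr1:128590718-128593315, 2598 bp) ranged from 39.3 to 45.6 CPM in unstimulated WT (median 40.8), 39.9 to 45.6 in unstimulated AhR-KO (median 44.7), 30.9 to 36.1 in WT with LPS (median 34.3) and 29.8 to 37.5 in AhR-KO with LPS (median 32.4). The genotype differences were 0.08 ± 0.0599 and -0.04 ± 0.0593 on the log2 scale. LPS lowered it without overlap by 1.203-fold in WT (adjusted p = 0.000201) and 1.31-fold in AhR-KO (adjusted p = 4.78e-07), under the fold of a DAR. The peak 15793 bp upstream fell from between 8.83 and 13.8 CPM to between 5.17 and 7.04 in WT (1.81-fold, adjusted p = 1.69e-08) and by 1.72-fold in AhR-KO. The peak 13989 bp upstream rose instead, from between 3.71 and 5.61 CPM to between 7.30 and 8.87 in WT (1.75-fold) and from between 2.44 and 3.62 to between 6.56 and 9.35 in AhR-KO (2.59-fold, adjusted p = 2.35e-13). There AhR-KO was lower without overlap before LPS (-0.56 ± 0.121, 1.48-fold and not a DAR), and with LPS the means were 8.14 and 8.16 CPM.

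CCRL2, the chemerin-binding atypical receptor known to be induced by LPS in macrophages, opened at its start with LPS in both genotypes. The start site peak (chr9:111056921-111058159, 1239 bp) ranged from 9.21 to 12.6 CPM in unstimulated WT (median 10.8), 10.8 to 14.7 in unstimulated AhR-KO (median 11.8), 25.3 to 32.7 in WT with LPS (median 28.9) and 36.6 to 44.0 in AhR-KO with LPS (median 40.8). The rise was 2.66-fold in WT (log2 1.41 ± 0.0787, adjusted p = 1.18e-17) and 3.28-fold in AhR-KO (1.71 ± 0.076, adjusted p = 7.91e-21), without overlap. With LPS every AhR-KO library was above every WT library by 1.41-fold (adjusted p = 5.01e-07), under the fold of a DAR, and the change of the genotype difference, 0.30 ± 0.109, did not pass (adjusted p = 0.0545).

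Shorter peaks within and behind Ccrl2 moved with its start. The peak 3474 bp downstream of the start rose from between 0.654 and 1.40 CPM to between 4.04 and 4.73 in WT and from between 1.02 and 1.52 to between 6.73 and 7.36 in AhR-KO (4.40-fold and 5.56-fold), and with LPS AhR-KO was 1.65-fold higher without overlap (adjusted p = 4.78e-07). The peak over an exon at 2184 bp held 1.19 to 2.56 CPM in unstimulated WT and 2.95 to 5.30 in unstimulated AhR-KO, a 2.26-fold difference without overlap (1.18 ± 0.158, adjusted p = 1.71e-07). With LPS it held 6.38 to 7.95 and 8.23 to 11.6, and the genotype difference shrank by -0.74 ± 0.197 (adjusted p = 0.00912). In contrast, the most accessible peak, 1816 bp upstream of the start, held 26.5 to 36.9 CPM over all WT libraries and 28.3 to 36.1 over all AhR-KO libraries, with log2 changes between 0.02 and 0.09 in every comparison.

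**Figure D5:**
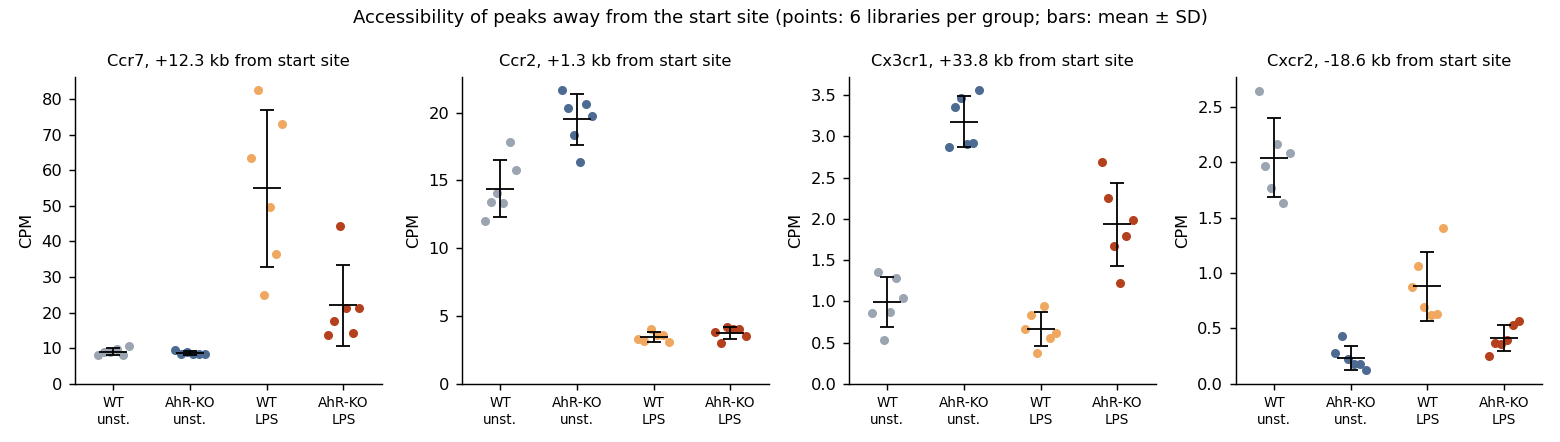
CPM in every library (points, 6 per group) with mean ± SD (bars) at 4 peaks away from the start site, titled by gene and distance in kb; each panel has its own y axis from 0. The Ccr7 panel shows WT LPS libraries from 24.9 to 82.5 CPM and 1 AhR-KO LPS library at 44.2 CPM above the rest of its group, the Ccr2 panel the fall with LPS, and the Cx3cr1 and Cxcr2 panels the higher and lower AhR-KO values.

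Between genes, accessibility was compared per kb of start site peak. In unstimulated WT the order was Ccr1 at 35.4 ± 2.35 CPM per kb (SD, n = 6), Cxcr4 at 15.9 ± 0.876, Cxcr2 at 11.4 ± 1.33, Cx3cr1 at 10.5 ± 0.880, Ccrl2 at 8.64 ± 0.977, Ccr2 at 8.49 ± 2.09, Ccr7 at 1.34 ± 0.522 and Ccr3 at 0.958 ± 0.375. Cxcr2, Cx3cr1, Ccrl2 and Ccr2 overlapped from one neighbor to the next, as did Ccr7 and Ccr3. With LPS Ccrl2 led at 23.2 ± 2.07 in WT, overlapping Ccr1 at 22.9 ± 2.03, and at 32.6 ± 2.25 in AhR-KO, above all Ccr1 libraries (25.5 ± 2.41). Ccr7 moved from 1.34 to 10.1 ± 3.89 CPM per kb in WT, overlapping Cx3cr1 at 9.92 ± 1.24, and from 0.787 to 3.52 ± 1.47 in AhR-KO, where it overlapped Cx3cr1 at 4.81 ± 0.616. Ccr2 dropped to the last place in both, at 1.33 ± 0.626 and 1.43 ± 0.751, overlapping Ccr3. The start site peaks as a group held 1 genotype DAR of 8 without LPS and 3 with LPS, and 5 LPS DARs in WT and 4 in AhR-KO. Over all 13458 start site peaks tested, 6.22%, 6.97%, 10.4% and 15.9% were DARs in these comparisons.

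Over all 24 libraries, the start site peaks of other genes that followed those of the receptors most closely (Pearson's r of log2 CPM, at least 1 Mb away) were Ankrd33b (0.96), Epb41 (0.95) and Il4i1 (0.95) for Ccr7. For Ccr2, Mrc1 and Gm6583 (both 0.96) were among the top 3. For Ccrl2 they were Parp10, Cgref1 and Hamp (each 0.98), and for Ccr1 Cd300lf, Fst and the shared start of Noc2l and Plekhn1 (0.94 to 0.93). Cxcr4 was followed most closely by Tmcc3, Mtss1 and Abtb2 (0.95 to 0.92), Ccr3 by Sema3c, Ypel4 and Myzap (0.89 to 0.87) and Cxcr2 by AW549877, Dera and Retreg1 (0.88 to 0.86). For Cx3cr1, Rimkla and Ube2ql1 were among the top 3 (both 0.93). The libraries of a group share genotype and treatment, and the values are a description over 24 libraries.

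The rest of the chemokine system was counted over lists of related genes. The 17 other chemokine receptor genes had 186 peaks within the same distance, 24 of them also counted above because the receptor genes lie in clusters, and 179 were tested. Without LPS 13 of these were lower and 27 higher in AhR-KO (median log2 difference 0.11), and with LPS 22 were lower and 20 higher (0.09). These are 22.3% and 23.5% of the tested peaks, beside 22.6% and 26.5% of all tested peaks. LPS lowered 37 and raised 49 in WT (48.0%, beside 47% of all tested peaks). In AhR-KO it lowered 42 and raised 44 (48.0%, beside 48.8%). At Cmklr1, the signalling receptor of chemerin, 12 of 17 peaks were higher in AhR-KO without LPS and 3 with LPS, and the genotype difference moved downward with LPS at 5. At Ackr2, a scavenger of inflammatory CC chemokines, 6 of 12 peaks were lower in AhR-KO with LPS, against 3 higher and none lower without LPS, and the genotype difference moved downward at 8. Cmklr1 and Ackr2 were singled out after their values were seen.

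Ligands of the 8 receptors were counted over a chosen list of 20 genes, which leaves out those of CCL21 and chemerin. Of these genes 19 had a peak, with 119 peaks in all. Genotype DARs made up 18.5% of the peaks without LPS and 16.8% with LPS, beside 22.6% and 26.5% of all tested peaks. Without LPS 6 peaks were lower and 16 higher (median 0.23, beside -0.02 over all tested peaks), and with LPS 1 was lower and 19 higher (median 0.13, beside 0.02). LPS lowered 17 and raised 39 in WT (47.1%, beside 47% of all tested peaks). In AhR-KO it lowered 26 and raised 44 (58.8%, beside 48.8%). For 17 genes of receptor signalling and desensitization, such as G proteins and arrestins, 305 of 316 peaks were tested. Without LPS 36 were lower and 38 higher in AhR-KO (24.3%), and with LPS 61 were lower and 25 higher (median -0.04), that is 28.2% beside 26.5% of all tested peaks (13.1% lower and 13.4% higher).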

How the data were processed

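ATAC-seq libraries from 24 cultures, 6 per group, were processed by the authors, who demultiplexed with bcl2fastq 2.20.0, aligned to mm10, called peaks with MACS2 and counted reads per consensus peak. The deposited table holds raw counts from featureCounts 2.0.1 per the file headers, with no normalization. The deposited peak lists of single libraries give −log10 q-values as the authors' MACS2 runs wrote them, and were used only to see in which libraries a region was listed. Groups were taken from the sample labels. The members and the related gene lists were chosen with earlier results of these data known. All peaks passing filterByExpr were fitted with edgeR 4.0.16 in R 4.3.3 (TMM, trended dispersion, robust quasi-likelihood fit, 1 term per group). P-values were adjusted by Benjamini-Hochberg over all 174193 tested peaks. They are two-sided. Standard errors are the log2 fold change divided by the root of its F statistic. Peaks given in full were the start site peak, the most accessible peak and, for each of 5 comparisons, the DAR with the smallest p of each gene. Other peaks given with values (at Ccr7, Ccr1, Ccr3 and Cxcr2) were described after their values were seen. Count totals of 8.54 to 34.6 M per library set the precision. No pair of libraries agreed within sampling noise (60 pairs, lowest chi-square per peak 1.23). On simulated data for the unstimulated genotype comparison (154350 peaks), 24 of 67 peaks changed 1.5-fold, 64 of 67 changed 2-fold and 66 of 66 changed 4-fold were called, with 6 calls among unchanged peaks. The changed peaks were drawn from the better covered peaks, and all peaks had the same dispersion. These rates therefore do not cover the weakly open peaks. Alternatives were other scaling, DESeq2 1.42.0, no filter, only the groups compared, a replicate block, other fold and distance limits, and leaving out each library. Some peaks and genes that this rule selects are not reported here.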

Additional observations from a re-analysis of the deposited data

Results flagged for a closer look

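The genotype difference changed with LPS at 7 of the peaks given in full, as tested by the interaction of genotype and LPS (AhR-KO minus WT with LPS, less the same without LPS, on the log2 scale). It was 2.03 at the Cxcr2 upstream peak, 0.642 at the Cxcr2 start site, 1.48 at the Ccr2 peak 2571 bp upstream, 0.716 at the Ccr1 peak 8207 bp downstream and 0.974 at the peak within Csrnp1. It was -1.24 at the Ccr7 peak beyond the 3′ end, a call lost in 21 of 24 refits without 1 library, and -0.739 at the Ccrl2 exon peak.

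A library stood apart from the other 5 of its group in 4 of 140 groups of values, where chance alone flags about 1 in 20. The gap to the nearest library, as a share of the group's range, exceeded 0.625 in each. AhR-KO LPS replicate 3 was the high library at the Ccr7 peak beyond the 3′ end (0.749) and at the Ccr7 start site (0.690). Unstimulated AhR-KO replicate 4 stood apart at the Cxcr2 start site (0.644) and unstimulated WT replicate 5 at the Cxcr4 start site (0.675).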

How the results depend on the processing

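Of 113 values of single peaks, 94 kept their direction and side of the threshold in every setting run. Total counts of DARs moved by less than 1.5 times under RLE scaling, library totals without TMM, DESeq2, no filter and only the groups compared, although the lower genotype DARs without LPS went from 8 to 5 under RLE scaling and with DESeq2. Requiring a 2-fold difference gave 8 DARs between genotypes without LPS, 14 with LPS, 40 for LPS in WT and 6 for the interaction, and no fold limit gave 50 and 60 between genotypes and 25 for the interaction. Peaks within 5 kb of the gene body held 13, 17, 39 and 42 DARs (genotypes without and with LPS, LPS in WT and in AhR-KO), and peaks whose nearest start site is the receptor's own held 13, 17 and 42 (genotypes without and with LPS, LPS in AhR-KO). Leaving out 1 library gave 19 to 26 and 25 to 31 DARs between genotypes without and with LPS, 60 to 66 and 62 to 66 for LPS in WT and AhR-KO, and 10 to 14 for the interaction. The Ccr2 start site difference between genotypes with LPS, 0.13, became -0.11 without AhR-KO LPS replicate 4 (range -0.11 to 0.34 when 1 library was left out), and the cause was not tested. At the Ccr3 start site the genotype call with LPS was lost without TMM (0.57), with DESeq2 (0.62) and with only the groups compared (0.58). The labels do not say whether replicate numbers mark shared animals, and not every same-numbered pair correlated above 0.1: between treatments, the correlation of same-numbered libraries exceeded 0.1 in 5 of 6 WT pairs and 2 of 6 AhR-KO pairs, and 4 and 3 of 6 correlated best with their own number. With a replicate block the counts were 23, 29, 65, 65 and 12. It ended the interaction call at the Ccr7 peak beyond the 3′ end (-1.30, adjusted p = 0.0625) and the unstimulated genotype call at the Ccr3 intron peak (0.58), and it called the interaction at the Ccr3 start site (1.11, adjusted p = 0.0225).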
